A study of Caenorhabditis elegans with 139 samples.

Results

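The 7 genes described here are 6 warthog genes of the nematode Caenorhabditis elegans, wrt-1, wrt-2, wrt-4, wrt-5, wrt-6 and wrt-10, and the quahog gene qua-1. They were taken by their sequence names (ZK1290.12, F52E4.6, ZK678.5, W03D2.5, ZK377.1, ZK1290.8 and T05C12.10) from a table of 20687 genes, and all 7 were found. The table holds messenger RNA counts of 139 single embryos, 1 embryo per library, made by CEL-Seq, a method that barcodes the RNA of each sample, copies it by in vitro transcription and reads transcripts near their 3′ ends. Embryos came from cut adults; the stated routine was to pick them at the 4-cell stage and keep them at 20°C until freezing, and no genotype or treatment other than time is given. Each embryo carries a labelled time, in minutes after (or, if negative, before) the 4-cell stage, and these times were put into 7 windows: T1 from -50 to 30 min (17 embryos), T2 from 40 to 100 min (11), T3 from 110 to 190 min (13), T4 from 200 to 290 min (30), T5 from 300 to 390 min (18), T6 from 400 to 590 min (25) and T7 from 600 to 840 min (25). Nothing says that the embryos of a window came from separate mothers or cultures, so p-values measure the spread between these embryos only.

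Nematodes have no clear Hedgehog ligand and no Smoothened gene, but carry a large family of secreted Hedgehog-related proteins along with Patched and many Patched-related membrane proteins. In Hedgehog itself a carboxy-terminal Hog domain cuts the protein and joins cholesterol to the amino-terminal signal. Warthog proteins share an amino-terminal Wart domain. In WRT-1, WRT-4 and WRT-6, and in the quahog protein QUA-1, it or the Qua domain is followed by a Hog domain, whereas WRT-2, WRT-5 and WRT-10 lack one. Many genes of the family are expressed in the epidermis and are known for roles in moulting and in the matrix that covers the epidermis.

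Gene counts per embryo ranged from 12338 to 4557314 with a median of 692649, and 13 embryos held fewer than 100000. Levels are given as CPM, each count scaled to a common total of gene counts per embryo, which are not per transcript length, so levels are compared within a gene and not between genes. Titles are numbered from 1 to 139 without a mark of groups. For this description they were cut into 5 blocks of consecutive numbers, by title number and the order of labelled times. The blocks are titles 1 to 50, 51 to 70, 71 to 82, 83 to 94 and 95 to 139. The labels call nothing a batch, but every T7 embryo and 18 of 25 T6 embryos are in block 1, while no T5 embryo is. All embryos labelled 430 min or later are of block 1, so embryos past that time differ from T5 embryos in block as well as in time, while among themselves they share a block. In 7 embryos the time predicted from all other embryos missed the label by more than 100 min. Of these, 4 of block 1 labelled 240 or 250 min were placed at 420 or 430 min, and 3 of block 2 labelled 200, 340 and 400 min were placed at 790 or 800 min. The correlation with the other embryos at the best time was 0.876 to 0.914 for the 4 of block 1. For the 3 of block 2 it was 0.459, 0.566 and 0.544, so these matched no time well. The 3 of block 2 held 4.38%, 5.37% and 4.82% of their counts in the 6 adult yolk protein genes, against window means of 0.219% to 0.990%. The 6 markers of the epidermis had a median summed level of 347 CPM in T1, 99.3 in T2 and 367 in T3, then 2956 in T4 and 8219 in T5, and lastly 10230 in T6 and 666 in T7, with counts of all 6 in each window. Most of the T6 sum is sqt-3, a cuticle collagen gene (7548 CPM on average), and 4 of the other markers had their highest mean in T5. In T6 against T5, 0 of 6 were called higher (16.9% of all tested genes) and 1, elt-3, lower (9.21% of all). In T7 against T6, 4 of the 6 epidermis markers were called lower, beside 15.6% of all tested genes. Of the markers of other tissues tested there, 2 of 3 muscle genes were higher and 1 lower, 1 of 2 intestine genes (act-5) was higher, and 2 of 4 neuron genes were higher. Of all genes tested there 13.3% were called higher. Of the 6 yolk genes, 4 were called higher in T6 against T5, beside 16.9% of all tested genes. The part of these yolk changes in the changes below was not tested. In whole embryos, more cells of a type and more RNA per cell cannot be told apart.

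All 7 genes differed among the 7 windows (edgeR quasi-likelihood F-test, adjusted p between 1.92e-36 for wrt-1 and 4.63e-10 for wrt-5). That was also true of 93.8% of the 9923 genes tested, so the genes are described by when and how far they changed. Smoothed over labelled time, the highest level came at 310 min for wrt-10, 340 min for wrt-5, 470 min for qua-1, 500 min for wrt-2, 530 min for wrt-1, 540 min for wrt-4 and 550 min for wrt-6. wrt-10 and wrt-5 had their highest window mean in T5, and the other 5 in T6.

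**Figure D1:**
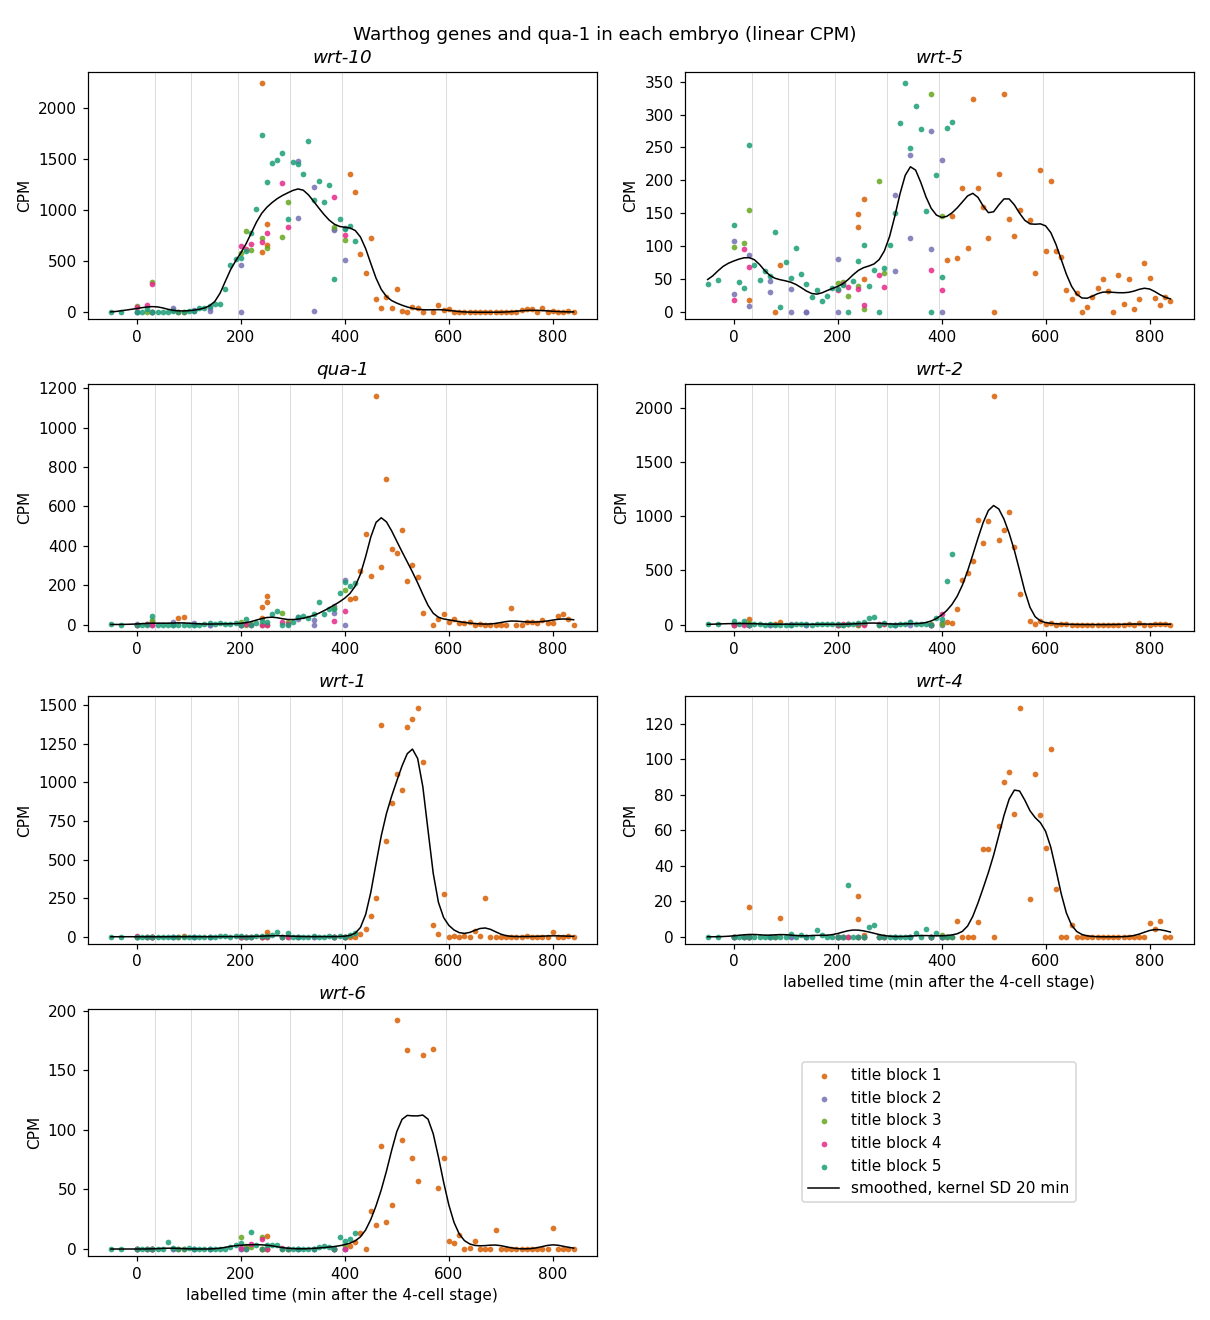
Level of each gene in CPM (linear vertical axis) against labelled time in each of the 139 embryos; points are embryos coloured by block of title numbers, grey lines are window limits and the black line is a Gaussian-kernel mean with an SD of 20 min. The smoothed level of wrt-10 was above 50% of its maximum from 210 to 440 min, that of qua-1 from 440 to 520 min, wrt-2 from 460 to 540 min, wrt-1 from 470 to 560 min, wrt-6 from 480 to 580 min and wrt-4 from 500 to 610 min.

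Among the genes without a Hog domain, wrt-10 came on first. Its mean was 47.9 ± 93.6 CPM in T1, 9.89 ± 13.1 in T2 and 123 ± 173 in T3, then 895 ± 452 in T4 and 1064 ± 417 in T5, and lastly 406 ± 413 in T6 and 7.34 ± 12.7 in T7 (SD, n as above). T3 embryos ranged from 9.13 to 522 CPM with a median of 39.5, against 0 to 42.9 CPM with a median of 6.02 in T2, so the windows overlapped. Within T3 the 10 embryos labelled 110 to 160 min held 9.13 to 85.0 CPM, and those at 170, 180 and 190 min held 224, 460 and 522 CPM. wrt-10 rose in T3 against T2, by 3.40 ± 0.75 on the log2 scale (SE; edgeR adjusted p = 0.0011), where 10.4% of all tested genes were called higher, a call being an adjusted p under 0.05 with at least a 2-fold change. It rose again in T4 against T3, by 2.90 ± 0.47 (adjusted p = 3.82e-06), where 13.6% of tested genes were called higher. T4 embryos held 0 to 2243 CPM with a median of 757, against 9.13 to 522 CPM in T3, and the embryo at 0 was the one with 17878 gene counts labelled 200 min and placed at 790 min. Without the 5 T4 embryos unlike their label, T4 ranged upward from 458.5 CPM.

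No change of wrt-10 was called in T5 against T4 (log2 fold change 0.33 ± 0.29, edgeR adjusted p = 0.44), and a fall was called in T6. T6 embryos held 0 to 1356 CPM with a median of 227, against 11.3 to 1678 CPM with a median of 1118 in T5. The change in T6 against T5 was -1.23 ± 0.49 (adjusted p = 0.0491), and 9.21% of tested genes were called lower there. With title block as a covariate it was -0.49 (adjusted p = 0.812), and in block 5 alone -0.50 (adjusted p = 0.46), where the 3 T6 embryos are at 400 to 420 min. No T5 embryo is in block 1, so the covariate fit compares T6 with T5 only within blocks 2 to 5. The T6 embryos of those blocks are all at 400 to 420 min. Inside T6, 9 embryos at 500 to 590 min held 0 to 227 CPM with a median of 19.2, against 37.3 to 1356 CPM with a median of 699 in 16 embryos at 400 to 490 min. That change of -3.68 ± 0.71 (adjusted p = 8.48e-04) stood beside 4.18% of tested genes called lower. In T7 against T6, wrt-10 fell by 5.24 ± 0.69 (adjusted p = 1.25e-08), where 15.6% of tested genes were called lower, and 15 of 25 T7 embryos held no count.

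Before T3, wrt-10 counts differed with title block. In T1, the 6 embryos of blocks 3 and 4 held 6.14 to 300 CPM, against 0 to 36.8 CPM in the 6 of block 5 and 0.567 to 1.71 CPM in the 4 of block 2. Of the 6 embryos of blocks 3 and 4, 3 held fewer than 100000 gene counts, as did 3 of the 6 of block 5. The part of the block in this difference was not tested. The order of window means for wrt-10 was T5, T4, T6, T3, T1, T2 and T7, and the only neighbours in it that differed were T6 over T3 (adjusted p = 0.00768) and T3 over T1 (adjusted p = 0.00497).

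wrt-5, a gene known to be needed for epidermal development in the embryo, was the only 1 of the 7 with counts in every T1 embryo. Its mean was 79.8 ± 62.0 CPM in T1, 54.1 ± 33.7 in T2 and 32.3 ± 27.3 in T3, then 57.9 ± 49.0 in T4 and 191.5 ± 104 in T5, and lastly 151 ± 92.9 in T6 and 41.9 ± 43.0 in T7. Its smoothed level stayed above 50% of its maximum from 300 to 610 min, the longest span of the 7. T5 embryos held 0 to 347 CPM with a median of 193, against 0 to 199 CPM with a median of 44.1 in T4. wrt-5 rose by 1.72 ± 0.33 in T5 against T4 (edgeR adjusted p = 1.88e-04), beside 8.8% of tested genes called higher. No change was called in T2 against T1 (-0.02 ± 0.44), T3 against T2 (-0.95 ± 0.63), T4 against T3 (0.91 ± 0.48) or T6 against T5 (-0.05 ± 0.34), and 29.6% of genes tested in T2 against T1 were called in 1 direction or the other. T7 embryos held 0 to 199.5 CPM with a median of 28.9, against 0 to 331 CPM with a median of 145 in T6. The fall of 1.56 ± 0.38 in T7 against T6 was called (adjusted p = 7.99e-04). In its order of means (T5, T6, T1, T4, T2, T7, T3), T6 exceeded T1 (adjusted p = 1.01e-04), and no other neighbours differed.

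wrt-2, whose promoter is widely used to mark epidermal seam cells, was low in every window before T6 and again in T7. Its mean was 8.85 ± 15.7 CPM in T1, 2.79 ± 6.68 in T2 and 2.21 ± 2.42 in T3, then 7.71 ± 16.7 in T4 and 6.62 ± 15.5 in T5, and lastly 457 ± 503 in T6 and 2.66 ± 4.70 in T7. Before T6 the highest embryos were those of T4 at 260 and 270 min, with 63.8 and 69.1 CPM (142 and 126 counts). T6 embryos held 0 to 2115 CPM with a median of 401, against 0 to 61.5 CPM with a median of 0.222 in T5. The rise of 6.34 ± 0.87 (edgeR adjusted p = 1.07e-07) stood beside 16.9% of tested genes called higher in T6 against T5, 1171 higher and 639 lower, or 1034 higher and 943 lower with relative log expression scaling. It was kept with title block as a covariate (4.78) and in block 5 alone (5.28), both resting on T6 embryos up to 420 min. Blocks differed at the same label: at 410 min the embryo of block 5 held 401 CPM and that of block 1 held 22.2, and at 420 min they held 654 and 18.7. In T7, wrt-2 fell by 6.89 ± 0.69 against T6 (adjusted p = 5.02e-12), and T7 embryos held 0 to 17.2 CPM with a median of 0. Its T6 mean exceeded the next in order, T1 (adjusted p = 2.31e-11), and no neighbours below that differed. The annotation of wrt-2 overlaps pccb-1 on the opposite strand, and no source used here gives the use of strand in counting, so reads of the pair cannot be told apart.

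Of the genes with a Hog domain, qua-1, a gene required for moulting, came on first. Its mean was 5.10 ± 11.1 CPM in T1, 7.12 ± 13.6 in T2 and 2.61 ± 3.13 in T3, then 22.2 ± 37.4 in T4 and 56.2 ± 40.2 in T5, and lastly 266 ± 252 in T6 and 13.9 ± 20.1 in T7. T5 embryos held 0 to 162 CPM with a median of 49.4, against 0 to 146 CPM with a median of 2.40 in T4. That difference of 1.12 ± 0.56 was not called (edgeR adjusted p = 0.14). The 4 T4 embryos of block 1 labelled 240 or 250 min and placed at 420 or 430 min held 34.5 to 146 CPM, and without the embryos unlike their label the change was 2.30 (adjusted p = 1.62e-04). It was also called with block as a covariate (2.08, adjusted p = 0.00163) and in block 5 alone (1.42, adjusted p = 0.0246).

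T6 embryos held 0 to 1163 CPM of qua-1 with a median of 223, against 0 to 162 CPM with a median of 49.4 in T5. The rise of 2.5 ± 0.44 was called (edgeR adjusted p = 1.21e-05), and was 1.65 with block as a covariate (adjusted p = 0.0732). The covariate value rests on T6 embryos up to 420 min. The highest embryo was at 460 min, and the smoothed level stayed above 50% of its maximum from 440 to 520 min. In T7 against T6, qua-1 fell by 3.92 ± 0.53 (adjusted p = 2.04e-08), with T7 embryos at 0 to 82.2 CPM and a median of 6.36. T6 exceeded T5, the next in its order of means (adjusted p = 0.00142), and no other neighbours in the order T6, T5, T4, T7, T2, T1, T3 differed. An RNA gene, M110.11, is annotated on the opposite strand across qua-1.

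wrt-1 was low through T5 and reached its highest levels within T6. Its mean was 0.236 ± 0.762 CPM in T1, 0.742 ± 2.26 in T2 and 0.799 ± 1.34 in T3, then 4.18 ± 9.04 in T4 and 0.821 ± 1.75 in T5, and lastly 445 ± 562 in T6 and 14.2 ± 50.8 in T7. T6 embryos held 0 to 1483 CPM with a median of 77.1, against 0 to 5.61 CPM with a median of 0 in T5. The 8 embryos at 480 to 550 min held 618 to 1483 CPM, those at 570 and 580 min held 77.1 and 20.4, and that at 590 min held 277. wrt-1 rose by 9.09 ± 1.11 in T6 against T5 (edgeR adjusted p = 8.53e-09). With block as a covariate this was 2.97 (adjusted p = 0.149), and in block 5 alone 3.20 (adjusted p = 0.047), both resting on T6 embryos up to 420 min.

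wrt-1 had too few counts in T7 for the filter of the T7 against T6 fit. From the fit of all 7 windows, T6 exceeded T7 by 6.29 (edgeR adjusted p = 8.13e-13), and T7 embryos had a median of 0. A single T7 embryo at 670 min held 254 CPM, 10 counts of 39430. No other neighbours in its order of means differed. Late in T6 (500 to 590 min) 9 embryos held 20.4 to 1483 CPM with a median of 1058, against 0 to 1374 CPM with a median of 14.5 in 16 embryos at 400 to 490 min, and the difference of 2.11 ± 0.97 was not called (adjusted p = 0.179).

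wrt-6 and wrt-4 had the latest smoothed maxima of the 7 and the fewest counts. The mean of wrt-6 was 0.0129 ± 0.0532 CPM in T1, 0.665 ± 1.70 in T2 and 0.425 ± 1.08 in T3, then 2.82 ± 4.10 in T4 and 0.952 ± 2.42 in T5, and lastly 51.9 ± 61.2 in T6 and 2.59 ± 5.20 in T7. T6 embryos held 0 to 192 CPM with a median of 22.9, against 0 to 10.0 CPM with a median of 0 in T5. The rise of 5.54 ± 0.80 was called (edgeR adjusted p = 3.42e-07), and was 2.31 with block as a covariate (adjusted p = 0.197) and 2.39 in block 5 alone (adjusted p = 0.134). Both of the latter values rest on T6 embryos up to 420 min. The rise continued inside T6, where embryos at 500 to 590 min held 51.0 to 192 CPM with a median of 91.9, against 0 to 86.4 CPM with a median of 7.61 at 400 to 490 min. That rise of 2.99 ± 0.62 (adjusted p = 0.00174) stood beside 5.73% of tested genes called higher. From the fit of all 7 windows, T6 exceeded T7 by 4.06 (adjusted p = 8.17e-08). T4 came next after T6 in its order of means (adjusted p = 8.5e-10), and no neighbours below that differed.

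The mean of wrt-4 was 0.998 ± 4.12 CPM in T1, 0.958 ± 3.18 in T2 and 0.556 ± 1.13 in T3, then 2.51 ± 6.90 in T4 and 0.477 ± 1.17 in T5, and lastly 29.6 ± 39.9 in T6 and 8.44 ± 23.2 in T7. It passed the filter on low counts only in the comparison within T6. There embryos at 500 to 590 min held 0 to 129 CPM with a median of 69.4, against 0 to 49.6 CPM with a median of 0 at 400 to 490 min. The rise of 3.37 ± 0.88 was called (edgeR adjusted p = 0.0114), but not with block as a covariate (2.53, adjusted p = 0.117) or in block 1 alone (2.55, adjusted p = 0.0786). High levels lasted past the end of T6, with 50.1 CPM at 600 min, 106 at 610 min and 26.8 at 620 min. T6 did not exceed T7 by the test (1.65, adjusted p = 0.0712), and T7 exceeded T4 (adjusted p = 0.00728), with no difference called between lower neighbours.

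**Figure D2:**
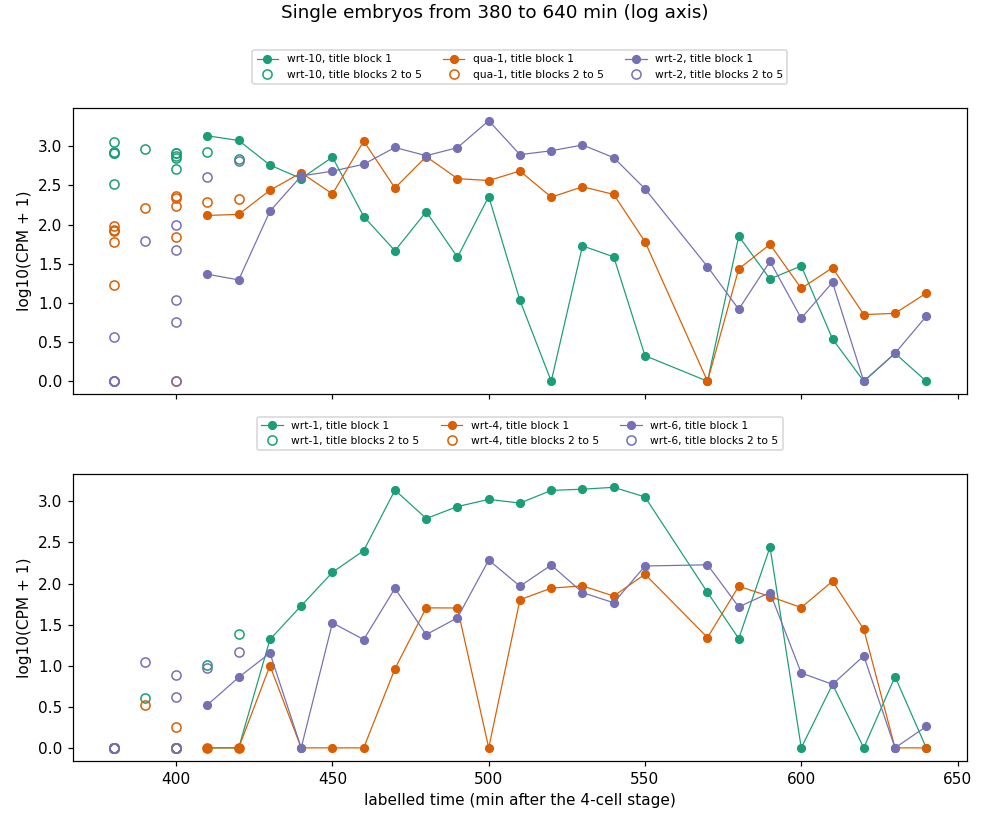
Levels from 380 to 640 min as log10(CPM + 1) against labelled time, with 1 point per embryo; filled points joined by lines are block 1 and open points are blocks 2 to 5. wrt-10 was low by 510 min, where wrt-1, wrt-2 and wrt-6 were high, and wrt-4 was still at 106 CPM at 610 min, where wrt-2 was at 17.2 CPM.

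**Figure D3:**
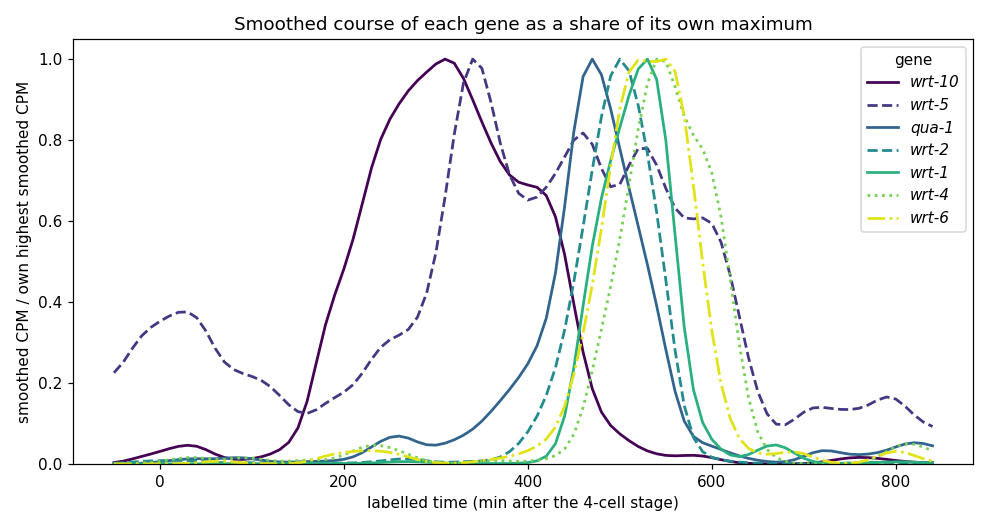
Smoothed level of each gene divided by its own highest smoothed level, against labelled time. The curves of qua-1, wrt-2, wrt-1, wrt-4 and wrt-6 stay above 50% of their maxima for 80 to 110 min, against 230 min for wrt-10 and 310 min for wrt-5.

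Across comparisons, called counts among the 7 genes were 0 of 1 tested in T2 against T1, 1 of 2 higher in T3 against T2 (10.4% of all tested genes), 1 of 2 higher in T4 against T3 (13.6%) and 1 of 3 higher in T5 against T4 (8.8%). In T6 against T5, 4 of 6 tested were higher (16.9% of all) and 1 lower (9.21%), and with title block as a covariate wrt-2 alone of the 6 stayed called. That covariate fit rests on the T6 embryos of blocks 2 to 5, at 400 to 420 min. It cannot tell block from time in the later T6 embryos, which are all of block 1. In T7 against T6 all 4 tested were lower (15.6% of all), and in block 1 alone they and wrt-1 were lower too, by values between -7.17 for wrt-2 and -1.58 for wrt-5. The T7 against T6 fit called 704 genes higher and 826 lower, or 618 higher and 1118 lower with relative log expression scaling. Within T6, 2 of 7 were higher (5.73% of all) and 1 lower (4.18%) at the later times, and in block 1 alone wrt-6 (2.36) and wrt-10 (-3.53) stayed called. Several genes passed the filter on low counts mainly through the embryos where they were high. These were wrt-10 in T3 against T2, wrt-1, wrt-2 and wrt-6 in T6 against T5, wrt-2, wrt-10 and qua-1 in T7 against T6, and wrt-4 and wrt-6 within T6. For them a change the other way could hardly be called, so the direction of those calls adds nothing to the levels. None of the 7 was called between later and earlier times of T4 (2 tested, 0.753% of genes called), T5 (3 tested, 0.125%) or T7 (1 tested, 4.02%). At an unadjusted edgeR p under 0.05 these would be 0, 1 and 0 genes, the 1 being qua-1 in T5 (1.47 ± 0.45, adjusted p = 0.217). DESeq2 called qua-1 there (adjusted p = 0.0103) and none in T4 or T7, and for wrt-5 in T2 against T1 the unadjusted edgeR p was 0.968. Without the filter on low counts, edgeR called wrt-2 (2.71, adjusted p = 0.0301) and wrt-1 (3.54, adjusted p = 0.0183) higher at the later times of T4. In T5 it then called wrt-4 higher (3.92, adjusted p = 0.0428).

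**Figure D4:**
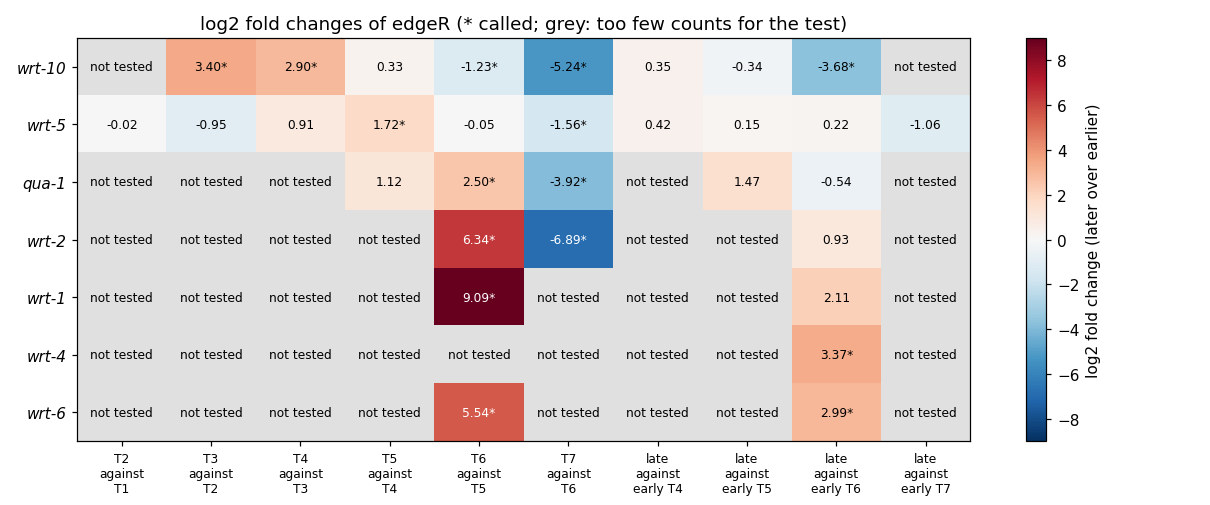
log2 fold change of each gene (rows) in each comparison of later over earlier embryos (columns), from edgeR; an asterisk marks a call and grey marks a gene with too few counts for the test. wrt-1 has the highest value, 9.09 in T6 against T5, and wrt-2 the lowest, -6.89 in T7 against T6.

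wrt-1 and wrt-10 are neighbours on chromosome II, on opposite strands with their 3′ ends facing. Their times differed: at 310 min, near the maximum of wrt-10, 3 embryos held 924 to 1487 CPM of wrt-10 and none of wrt-1. At 520 and 550 min embryos held 1361 and 1132 CPM of wrt-1 and 0 and 1.12 CPM of wrt-10. qua-1 is also on chromosome II, wrt-5 is on IV, and wrt-2, wrt-4 and wrt-6 are on X.

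The other 4 warthog genes had few counts. The highest window mean was 24.4 ± 20.7 CPM for wrt-3 in T7, 19.4 ± 32.0 for wrt-8 in T7, 7.38 ± 20.8 for wrt-9 in T6 (n = 25 each) and 6.61 ± 9.88 for wrt-7 in T2 (n = 11). wrt-8 had no count in any embryo of T1 to T5, which allows up to 0.277 CPM in T2, the window with the fewest counts (3 counts over all its embryos). Of these 4, 2 had their highest mean in T7, against 0 of the 7, and only 1 of the 4 was tested in any comparison of pairs.

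For the related ligand-like families the changes given are edgeR calls. Most of these genes had few counts: a window mean of 10 CPM or more was reached by 9 of 17 groundhog and hog genes, 3 of them highest in T6 and 6 in T7, and by 10 of 31 ground-like genes, 6 highest in T6 and 4 in T7. The highest means were grd-5 at 239 ± 126 CPM, grd-13 at 186 ± 165, grd-6 at 77.2 ± 99.9 and grd-14 at 63.8 ± 65.7, all in T7, and grl-4 at 2978 ± 3808 and grl-16 at 348 ± 390 in T7, then grl-7 at 341 ± 514 and grl-15 at 246 ± 401 in T6. In T6 against T5, 2 of 2 ground-like genes tested were higher, grl-7 by 8.77 ± 1.06 and grl-4 by 3.40 ± 0.71 (median 6.09, against -0.07 over all tested genes). Of all genes tested there 16.9% were called higher. No ground-like gene had enough counts to be tested in T5 against T4. In T7 against T6, 3 of 3 tested were higher, beside 13.3% of all tested genes. Within T6, 4 of 6 were higher at the later times (5.73% of all tested genes), as wrt-4 and wrt-6 were. A gene of this or another list with few counts on 1 side of a comparison passes the filter mainly through the side where it is high. For such a gene a change the other way could hardly be called, and the direction of its call adds nothing to the levels.

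Of 29 Patched and Patched-related genes, the putative receptors and transporters, 12 had their highest mean in T6 and 10 in T7. With a window mean of 10 CPM or more these were 9 and 7. ptc-1, needed in the germ line for cell division, was highest in T1 at 689 ± 405 CPM. ptr-18 (292 ± 438 CPM), ptr-4 (284 ± 128) and ptc-3 (270 ± 198) were highest in T6. In T5 against T4, 6 of 13 tested were higher (8.8% of all tested genes) and 0 lower, and in T6 against T5, 7 of 14 were higher (16.9% of all) and 0 lower, among them ptc-3 by 2.76 ± 0.45 and ptr-4 by 1.77 ± 0.37. In T7 against T6, 4 of 14 were higher (13.3% of all) and 3 lower (15.6%), ptr-4 by -4.09 ± 0.48. The median change of the list was 1.16 in T6 against T5 and -0.45 in T7 against T6, against -0.07 and -0.10 over all tested genes.

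Of 21 moulting and apical matrix factors, 10 had their highest mean in T5, 9 of them at 10 CPM or more. The highest were noah-2 at 2609 ± 2770 CPM and noah-1 at 2163 ± 747 in T5, both matrix proteins of the epidermis, sym-1 at 2171 ± 1265 in T4 and mlt-8 at 1023 ± 701 in T5. In T4 against T3, 11 of 14 tested were higher (13.6% of all tested genes), as wrt-10 was (median 2.66, against 0.05 over all tested genes). In T7 against T6, 10 of 11 were lower (15.6% of all), as the 4 tested genes of the 7 were (median -4.39, against -0.10). In T6 against T5, 3 of 15 were higher, near the 16.9% of all tested genes, and 7 lower, beside 9.21% (median -0.03, against -0.07). There 4 of the 7 genes were higher and 1 lower. Within T6, 2 of 16 were higher (5.73% of all) and 6 lower (4.18%) at the later times (median -1.18, against -0.14). There wrt-4 and wrt-6 were higher and wrt-10 lower. Among the epidermal and moulting regulators the GATA factor elt-1 was highest in T3 (324 ± 123 CPM), nhr-25 in T4 (116 ± 70.4), and lin-26 (318 ± 139) and elt-3 (161 ± 104) in T5.

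**Figure D5:**
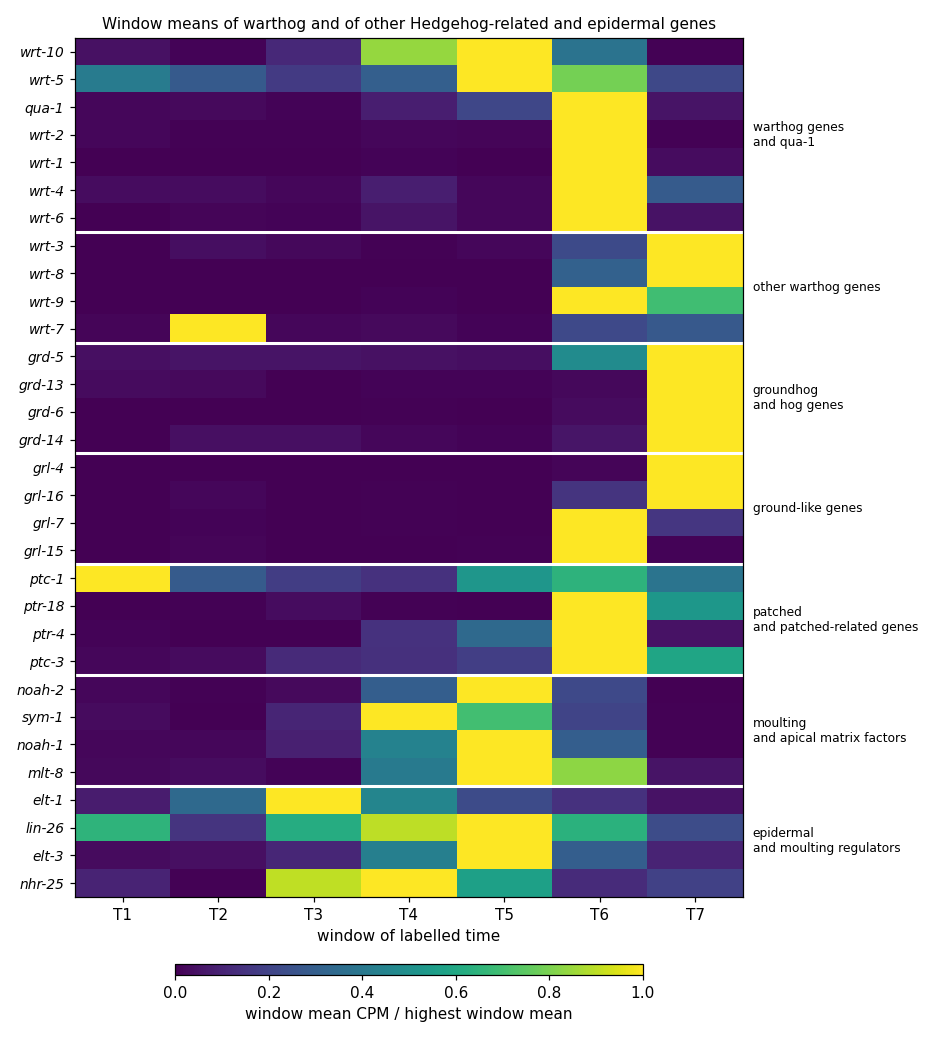
Window mean CPM divided by the highest window mean of the gene, for the 7 genes and the named genes of the other lists, in windows T1 to T7. The 7 genes peak in T5 or T6, with the groundhog genes shown peaking in T7.

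Over 139 embryos and 8724 genes that averaged 20 CPM or more in some window, the genes most like each of the 7 by Pearson correlation of log2(CPM + 10) were the following; embryos share title block and depth. For wrt-10 they were sym-1 (0.942), noah-2 (0.917) and noah-1 (0.915). For wrt-5 they were daf-19 (0.640), cyp-42A1 (0.634) and pqn-42 (0.621), the lowest of the values. For wrt-2 they were Y73E7A.8 (0.928), M03B6.3 (0.925) and R07E3.6 (0.918). For qua-1 they were lpr-4 (0.883), ptr-4 (0.868) and T27A10.6 (0.865). For wrt-1 they were C14A4.9 (0.905), F18C5.5 (0.903) and ZC449.1 (0.902). For wrt-6 they were sups-1 (0.869), F15H10.8 (0.868) and ZC449.1 (0.866), so ZC449.1 was shared with wrt-1. For wrt-4 they were the ground-like genes grl-7 (0.857) and grl-5 (0.847) and F30A10.2 (0.846). With a pseudocount of 1 in place of 10, 1 or 2 of the 3 remained for each gene other than wrt-5, for which 0 remained.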

How the data were processed

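Counts per gene and embryo were deposited as 1 table of raw counts by the authors, whose 20784 lines cover 20687 genes, 92 spike-ins and 5 counters of unassigned reads. Per the submitters' processing notes HTSeq 0.5.4p3, Bowtie2 2.1.0 and CASAVA 1.8 were used; their roles, the build and the strand setting are not given in the sources used here. No molecular identifiers are mentioned, so each count is a read after amplification. Of all reads 47.2% were in genes, 44.1% not aligned, 8.36% without a feature, 0.161% ambiguous and 0.167% from spike-ins, and the line for reads with several alignments holds 0. Only gene lines entered CPM and library sizes. Symbols came from a RefSeq gene table, which matched 20063 genes, and neighbours and overlaps from Ensembl release 115.

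Comparisons used the quasi-likelihood F-test of edgeR 4.0.16 under R 4.3.3 (filterByExpr with its minimum of 10 counts, TMM, Benjamini-Hochberg over all genes tested), with only the embryos of both groups in a fit, or all 139 embryos for neighbours in the order of means. The smoothed level is a Gaussian-kernel mean of 20 min SD on a 10 min grid. Alternatives were relative log expression factors, DESeq2 1.42.0, no filter on low counts, leaving out embryos unlike their label or under 100000 counts, and title block as a covariate or the largest block alone. The largest block means the one with the most embryos compared among those with at least 3 on both sides, so it differs between comparisons. The genes, lists and windows were chosen with earlier results of these data known. Named were all warthog genes, the 4 genes of each other list with the highest window mean, and the 3 genes most like each of the 7. Calls of list members and other examples were named after their values were seen.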

Additional observations from a re-analysis of the deposited data

Results flagged for a closer look

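Within 3 groups of labelled times of 9 embryos each, a single embryo stood far from the others in 8 of 20 sets of 1 gene in 1 group. For values drawn from a normal distribution chance gives about 1 in 20. That rate does not hold for counts that are mostly 0, where a single read gives such a gap. The embryos of 390 and 500 min each account for 2 of the 8. At 300 to 340 min, wrt-1 was highest in the embryo of 340 min at 4.75 CPM (4 counts), with the next at 0.444. In the same group wrt-6 was highest at 300 min at 0.375 CPM, which is 1 count, and all others were at 0. wrt-10 was lowest in the embryo labelled 340 min and placed at 790 min, at 11.3 CPM (1 count of 88778), with the next at 924. At 350 to 390 min the embryo of 390 min was highest in wrt-2, at 61.5 CPM, with the next at 2.63, and in wrt-6, at 10.0 CPM, with the next at 2.58. wrt-10 was lowest there at 380 min, at 324 CPM in the embryo with 12338 gene counts (4 counts), with the next at 808. At 500 to 590 min the embryo of 500 min was highest in wrt-2, at 2.12e+03 CPM with the next at 1.04e+03, and in wrt-10, at 227 CPM with the next at 69.9. That embryo held 145625 gene counts. The parts of depth, block and label in these values were not tested.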

How the results depend on the processing

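Of 201 fold changes of the 7 genes recomputed under alternatives, 182 kept their direction and their side of the threshold, 8 kept direction but lost the call, 6 gained a call and 5 changed sign. The sign changes were all of wrt-5 near 0: in T2 against T1 (-0.02) it was 0.00483 without a filter on low counts, 0.309 without embryos under 100000 counts, 0.147 with title block as a covariate and 0.177 in the largest block alone, and in T6 against T5 (-0.05) it was 0.139 in the largest block. The lost calls, in T6 against T5 for wrt-1, wrt-6, wrt-10 and qua-1 and within T6 for wrt-4, all came with title block as a covariate or in 1 block alone. The causes were not tested. In T6 against T5 the block taken alone was block 5, which compares only 3 embryos, all at 420 min or earlier, with 10. The covariate fit there also rests on T6 embryos at 420 min or earlier. The highest window of each gene was the same by median and with TMM-scaled sizes. The smoothed maximum of wrt-6 moved to 510 min at the lowest when single embryos were left out.

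Counts of called genes over all genes changed more. Without a filter they were 4452 in T2 against T1, 3001 in T3 against T2, 4000 in T4 against T3, 3343 in T5 against T4, 4952 in T6 against T5 and 5336 in T7 against T6, against 1669, 1508, 1365, 1080, 1810 and 1530. Between later and earlier times they were then 908 and 350 within T4 and T5, and 2012 and 1995 within T6 and T7, against 37, 9, 609 and 185, and 16103 differed among windows, against 9304. More genes were tested without the filter. In the largest block alone they were 2630 in T3 against T2, 1689 in T5 against T4, 486 in T6 against T5 and 260 within T6. Without embryos unlike their label they were 1940 in T5 against T4 and 376 within T4. With title block as a covariate they were 215 in T6 against T5, 253 within T4, 52 within T5 and 196 within T6. DESeq2 called 127 within T4, 88 within T5, 999 within T6 and 540 within T7; within T5, relative log expression factors gave 3 and leaving out shallow embryos 20. Scaling by relative log expression moved the median of all genes by 0.125 in T3 against T2, -0.139 in T5 against T4, -0.13 in T6 against T5 and -0.206 in T7 against T6, and turned no member's direction. In T3 against T2, DESeq2 called 951 higher and 818 lower, against 639 and 869. No paired analysis was possible because replicate numbers are in accession order only and pair no embryos. Genes with few counts, wrt-4 and wrt-6 above all, are limited by depth.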
